A study of Mus musculus with 6 samples.

Results

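The mRNAs described here encode 9 stress response proteins of the mouse: the cytosolic chaperones Hspb1 and Hspa8, the mitochondrial chaperone Hspd1, the endoplasmic reticulum chaperones Hspa5 and Hsp90b1, the transcription factors Atf4, Xbp1 and Ddit3, and the heme-degrading enzyme Hmox1. The genes were chosen with earlier results of these data known. Their probes were taken by gene name, with no measured value in that step. Each non-control probe whose name in the scanner files was 1 of the 9 genes entered. This gave 13 probes of 41174 on the array, and 9 of its 27961 gene names. A probe was tested if the scanner marked it as above background on each array of 1 or more groups, which left 12 of the 13, among 21060 on the whole array. The remaining probe, A_52_P88910 for Hspb1, had signals of 1.66 to 2.37 on the 6 arrays, was well above background on none and is given no fold.

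The study measured RNA recovered with a tagged germ cell protein. Embryonic stem cells of the V6.5 line (strain C57BL/6 129SV mixed) carrying Dazl-GFP-V5 were depleted of feeder cells and grown in differentiation medium for 12 days, which the labels describe as giving in vitro primordial germ cells (PGCs). DAZL binds mRNAs in germ cells, and here it carries GFP and a V5 tag in all 3 groups. After ultraviolet crosslinking, RNA was taken as total input with no antibody (2 arrays), after immunoprecipitation (IP) with anti-PABP1 (2 arrays), or after IP with anti-GFP (2 arrays). PABP1 binds the poly(A) tails of most mRNAs, and its IP is labelled as a control. The labels give neither the promoter that drives the tagged protein nor whether the germ cells were separated from other cells of the culture, and they do not say that replicates are separate cultures. The p-values therefore measure only the spread between these arrays.

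Cells meet misfolded protein with several partly separate programs. Heat shock proteins hold or refold proteins in the cytosol and in mitochondria. In the endoplasmic reticulum (ER), the unfolded protein response acts through IRE1, which splices Xbp1 mRNA, through ATF6, and through PERK, which slows translation while allowing that of Atf4 mRNA, whose product in turn activates Ddit3. Heme and oxidants release the repressor BACH1 from Hmox1 and stabilise its activator NRF2. In germ cells, RNA-binding proteins such as DAZL act on the translation and stability of mRNAs already made. An IP is meant to read which mRNAs were attached, not how strongly a gene was transcribed. No array here holds an IP from untagged cells or with a non-specific antibody. Attached RNA and RNA carried over without attachment therefore cannot be told apart.

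Each array read 43379 spots with 0 saturated, and 41.5% to 52.6% of spots were well above background. Signals are given as scaled signal, the background-subtracted signal divided by the array's 75th percentile, which ran from 61.3 to 156. Replicate arrays correlated at 0.980 to 0.991 across kept probes, and arrays of different groups at 0.861 to 0.923; probes are not independent replicates. Slide 1 held both input arrays with replicate 1 of the PABP1 IP and replicate 2 of the GFP IP, and slide 2 held the rest. In input, 12 of 13 germ cell markers on the array were well above background, with Ddx4 the exception. Of markers of other cells, 9 of 12 for cardiac and smooth muscle, 5 of 7 for fibroblasts, 4 of 6 for blood and macrophages, 3 of 6 for neural cells, 1 of 5 for endothelium and 0 of 7 for visceral endoderm were well above background on both input arrays.

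The 9 mRNAs did not move as a block. Hmox1 mRNA stood 4.96-fold above input in the GFP IP and 4.14-fold above the PABP1 IP (a log2 difference of 0.78 with spike-in scaling, not past the threshold), and Atf4 mRNA was higher than input in both IPs. Hspb1, Xbp1 and Ddit3 mRNAs were highest in the PABP1 IP, as was Hspa8 by both probes. For Hspa8 probe A_51_P170371 the difference from input was small (0.17, not past the threshold, and -0.46 with quantile normalization). Hspa5, 1 of 2 Hspd1 probes and 1 of 2 Hsp90b1 probes were called below input in both IPs, for Hspa5 and Hspd1 except when arrays were scaled by spike-in controls. The other Hsp90b1 probe lay below input in both IPs too, but passed only in the GFP IP. Spike-in scaling turned it to 1.31 in the PABP1 IP. Between the GFP IP and input, 3 of 12 probes were higher and 6 lower by limma at an adjusted p under 0.05, where 52.9% of all kept probes were called, 20.9% higher and 32.0% lower. In PABP1 IP against input, 5 were higher and 3 lower, where 54.7% of all were called, 30.5% higher and 24.2% lower. From the PABP1 IP to the GFP IP, 2 were higher and 5 lower, where 62.5% of all were called, 25.0% higher and 37.6% lower.

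The called share of the 12 member probes was thus 75%, 66.7% and 58.3%, in comparisons where most kept probes of the array were called. Without input replicate 1 or input replicate 2, 4 and 3 member probes passed between the GFP IP and input, and without GFP IP replicate 1 or GFP IP replicate 2, 5 and 4. The arrays of the groups did not overlap for 11, 11 and 8 of the 12 probes in these comparisons, where 81.7%, 78.5% and 81.0% of all kept probes did not overlap. The median of the 12 log2 differences was -0.63, 0.23 and -0.43, beside -0.36, 0.12 and -0.43 over all kept probes. The comparisons with input share the input arrays, and both IPs enter the last comparison.

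**Figure D1:**
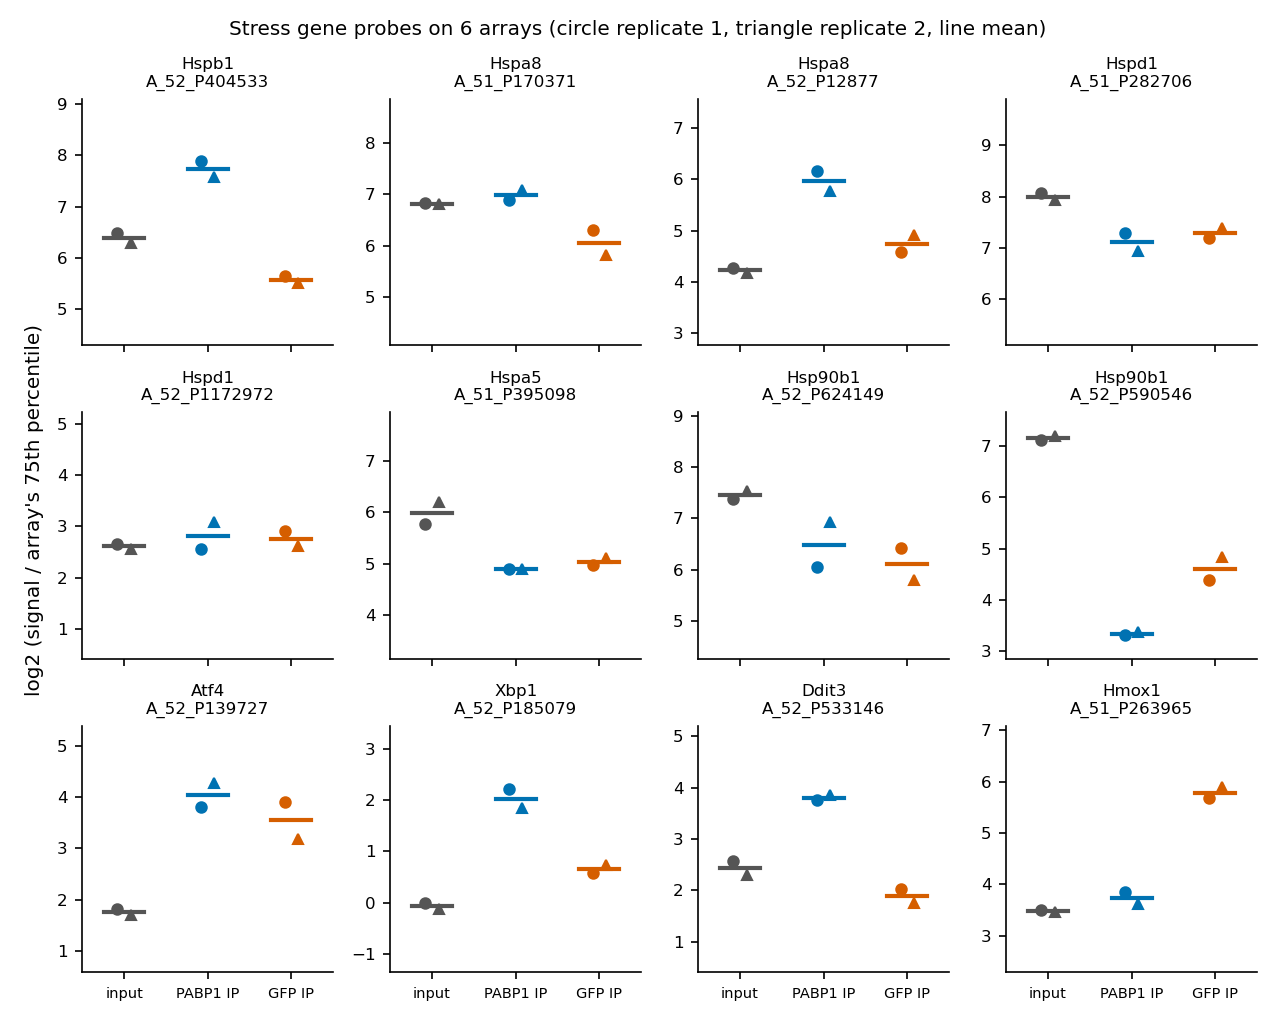
Scaled signal on a log2 axis for the 12 tested probes, 1 panel a probe, with input in grey, PABP1 IP in blue and GFP IP in orange; circles are replicate 1, triangles replicate 2 and lines group means. Hmox1 is high on the GFP IP arrays alone (5.67 and 5.90, with the other 4 arrays at 3.47 to 3.86). Hspb1, Xbp1, Ddit3 and both Hspa8 probes are highest on both PABP1 IP arrays, Hspa8 by A_51_P170371 only slightly above input.

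The split between higher and lower calls depended on how arrays were scaled, so each direction below is given with the scaling that turns it. With the median of all probes in place of the 75th percentile, the calls in GFP IP against input were 5829 higher and 2230 lower, against 4401 and 6735. With 8 spike-in probes they were 6589 and 505. In PABP1 IP against input, spike-in scaling gave 17611 higher and 422 lower, against 6416 and 5096. For the GFP IP against the PABP1 IP the split of 5258 and 7915 became 6035 and 5217 under median scaling, 6522 and 5833 with the percentile of detected probes, and 1181 and 13336 under spike-in scaling. Spike-in scaling moved the median of all kept probes to 0.64, 2.39 and -1.70 in the 3 comparisons, and the median of all probes moved it to 0.22, 0.31 and -0.04. In RNA from a mixed culture, fewer cells of a type and less RNA per cell cannot be told apart.

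Hspb1 encodes a small heat shock protein (HSP27) that holds unfolding proteins and is abundant in muscle. Its scaled signal was 89.2 and 78.1 in input, 238 and 190 in the PABP1 IP and 49.9 and 45.4 in the GFP IP. The PABP1 IP arrays were highest, the GFP IP arrays lowest, and no groups overlapped. The mRNA was 2.55-fold higher in the PABP1 IP than in input (log2 difference 1.35 ± 0.19 SE, limma adjusted p = 0.00341) and 4.47-fold lower in the GFP IP than in the PABP1 IP (-2.16 ± 0.19, adjusted p = 0.000722). Both calls held under all 18 alternatives run. Against input the GFP IP was lower (-0.81 ± 0.19, adjusted p = 0.0196), but this passed in only 11 of 18 alternatives and turned to 0.20 with spike-in scaling.

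Leaving out any 1 input or GFP IP array ended that last Hspb1 call, with values from -0.91 to -0.71 and adjusted p = 0.0578 to 0.118. Markers of cardiac and smooth muscle lay in the same order as Hspb1. Their summed scaled signal over 11 genes was 81.6 and 100.035 in input, 179 and 196 in the PABP1 IP and 30.9 and 41.5 in the GFP IP, with Myh6, Nkx2-5 and Myh11 not well above background in input. Blood and macrophage markers lay in that order too, at 13.1 and 25.1, 32.7 and 42.9, and 4.99 and 9.76. Fibroblast markers were 93.2 and 127 in input, 103 and 122 in the PABP1 IP and 31.8 and 56.1 in the GFP IP. Endothelial and neural markers were lowest in the PABP1 IP instead. The sums take every marker with a kept probe. Those of muscle, blood, fibroblast and endothelial markers thus include genes kept through IP arrays alone. The summed germ cell markers were 172 and 178 in input, 356 and 381 in the PABP1 IP and 215 and 234 in the GFP IP. The part of these cells in the Hspb1 values was not tested.

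Hspa8 encodes the constitutive cytosolic HSP70, which folds new proteins and uncoats clathrin vesicles, and was read by 2 probes. Probe A_52_P12877 had scaled signals of 19.4 and 18.0 in input, 71.8 and 55.1 in the PABP1 IP and 23.9 and 30.1 in the GFP IP. The PABP1 IP arrays were far above the others and the GFP IP arrays lay just above input. By this probe the mRNA was 3.36-fold higher in the PABP1 IP than in input (1.75 ± 0.22, adjusted p = 0.00225, in all 17 alternatives that kept the probe). It was lower in the GFP IP than in the PABP1 IP (-1.23 ± 0.22, adjusted p = 0.00548), a call lost with quantile normalization alone (-0.46, adjusted p = 0.118). Against input the GFP IP value was 0.52 ± 0.22 (adjusted p = 0.097), which passed with 6 alternatives, among them the block on the slide (0.70, adjusted p = 0.0159).

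Probe A_51_P170371, for the same Hspa8 accession, had scaled signals of 114 and 112 in input, 119 and 137 in the PABP1 IP and 78.7 and 56.7 in the GFP IP. Input and PABP1 IP arrays were close together and both GFP IP arrays were lower. The difference of PABP1 IP from input was 0.17 ± 0.22 (adjusted p = 0.536), -0.46 with quantile normalization and 2.45 with spike-in scaling. The GFP IP was lower than input (-0.76 ± 0.22, adjusted p = 0.0342) and than the PABP1 IP (-0.93 ± 0.22, adjusted p = 0.0143). These passed in 8 and 12 of 18 alternatives and turned to 0.25 with spike-in scaling and to 0.14 with quantile normalization, respectively. Without input replicate 1, input replicate 2 or GFP IP replicate 2 the first was -0.74, -0.77 and -0.52 (adjusted p = 0.142, 0.123 and 0.117). Without PABP1 IP replicate 2 or GFP IP replicate 2 the second was -0.83 and -0.69 (adjusted p = 0.0577 and 0.0536).

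Hspd1 encodes HSP60, the chaperonin of the mitochondrial matrix. By probe A_51_P282706 its scaled signal was 269 and 244 in input, 157 and 123 in the PABP1 IP and 146 and 169 in the GFP IP. Both input arrays were highest and the IPs overlapped each other. The mRNA was lower than input in the PABP1 IP (-0.89 ± 0.20, adjusted p = 0.0151) and in the GFP IP (-0.71 ± 0.20, adjusted p = 0.033), directions that spike-in scaling turned to 1.39 and 0.30. The calls passed in 13 and 6 of 18 alternatives, counting for the first the one turned by spike-in scaling. Without input replicate 1, input replicate 2 or PABP1 IP replicate 2 the first was -0.81, -0.96 and -0.71 (adjusted p = 0.0896, 0.0633 and 0.0587), and leaving out any input or GFP IP array ended the second (-0.81 to -0.60, adjusted p = 0.0608 to 0.161). The IPs differed by 0.18 ± 0.20 (adjusted p = 0.464), which spike-in scaling turned to -1.09.

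The second Hspd1 probe, A_52_P1172972, gave 6.33 and 5.90 in input, 5.90 and 8.45 in the PABP1 IP and 7.47 and 6.12 in the GFP IP. All 3 groups overlapped. None of its differences passed (0.21, 0.15 and -0.06, adjusted p = 0.496 to 0.826), and their signs changed with the scaling, the slide or single arrays.

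Hspa5 encodes BiP, the HSP70 of the ER, which binds unfolded secretory proteins and holds the ER stress sensors inactive. Its scaled signal was 54.5 and 73.7 in input, 29.6 and 29.7 in the PABP1 IP and 31.3 and 34.6 in the GFP IP. Both input arrays lay above all 4 IP arrays, and the IPs lay close together. The mRNA was 2.14-fold lower in the PABP1 IP (-1.10 ± 0.21, adjusted p = 0.00804) and 1.92-fold lower in the GFP IP (-0.94 ± 0.21, adjusted p = 0.0146) than in input, except with spike-in scaling, which gave 1.18 and 0.06. The first passed in 17 of 18 alternatives, counting the one turned by spike-in scaling, and gave -0.88 and adjusted p = 0.0515 without input replicate 2. The second passed in 11 and was lost without input replicate 2 (-0.73, adjusted p = 0.0822) or GFP IP replicate 1 (-0.87, adjusted p = 0.0665). The IPs differed by 0.15 ± 0.21 (adjusted p = 0.543), turned to -1.12 by spike-in scaling.

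Hsp90b1 encodes GRP94, the HSP90 of the ER, which folds integrins and Toll-like receptors. By probe A_52_P590546 its scaled signal was 140 and 146 in input, 10 and 10.4 in the PABP1 IP and 20.9 and 28.7 in the GFP IP. The input arrays stood far above the rest, the GFP IP was next and the PABP1 IP lowest, with no overlap. The mRNA read here was 14.0-fold lower in the PABP1 IP (-3.81 ± 0.21, adjusted p = 0.000836) and 5.82-fold lower in the GFP IP (-2.54 ± 0.21, adjusted p = 0.00161) than in input, in all 17 alternatives that kept the probe. Between the IPs the GFP IP was higher (1.27 ± 0.21, adjusted p = 0.00409), except with spike-in scaling (-0.0033, adjusted p = 0.996).

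Probe A_52_P624149, for the same Hsp90b1 accession, showed a smaller and more variable fall. Its scaled signal was 166 and 185 in input, 65.9 and 122 in the PABP1 IP and 86.0 and 55.5 in the GFP IP. Input was highest, and the IPs overlapped. The GFP IP was lower than input (-1.34 ± 0.37, adjusted p = 0.0294, in 10 of 18 alternatives), but not past the threshold without input replicate 1, input replicate 2 or GFP IP replicate 2 (-1.42, -1.27 and -1.03, adjusted p = 0.0989, 0.115 and 0.106). The PABP1 IP was at -0.97 ± 0.37 (adjusted p = 0.0735), with -1.41 (adjusted p = 0.0297) without PABP1 IP replicate 2, -1.35 (adjusted p = 0.00295) when blocked on the slide and 1.31 (adjusted p = 0.0191) under spike-in scaling.

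A ratio of both probes of a gene on the same array does not depend on how arrays are scaled to each other, and was tested for all 7242 pairs of kept probes after the member values had been seen. For Hsp90b1, the ratio of A_52_P624149 to A_52_P590546 was 1.19 and 1.26 in input, 6.59 and 11.8 in the PABP1 IP and 4.11 and 1.93 in the GFP IP. The ratio was low on both input arrays and high on both PABP1 IP arrays, with the GFP IP arrays between them. The ratio was 7.17-fold higher in the PABP1 IP than in input (2.84 ± 0.46, adjusted p = 0.00937, where 36.0% of pairs were called). The GFP IP lay between, at 1.199 ± 0.46 above input (adjusted p = 0.112, where 28.5% were called) and -1.64 ± 0.46 from the PABP1 IP (adjusted p = 0.0526, where 27.8% were called). These 2 differences of the GFP IP passed in 2 and 5 of 12 alternatives, respectively. The call against input ended without either input array (2.80 and 2.89, adjusted p = 0.0556 and 0.0528).

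For Hspa8, the ratio of A_51_P170371 to A_52_P12877 fell from 5.87 and 6.19 in input to 1.65 and 2.48 in the PABP1 IP, with 3.30 and 1.89 in the GFP IP. It was lower in the PABP1 IP than in input (-1.57 ± 0.36, adjusted p = 0.0246), and the GFP IP gave -1.27 ± 0.36 (adjusted p = 0.0523), which passed in 4 of 12 alternatives. The first call ended without input replicate 1, input replicate 2 or PABP1 IP replicate 1 (-1.61, -1.53 and -1.28, adjusted p = 0.0992, 0.111 and 0.0843). The Hspd1 ratio was 42.5 and 41.4 in input, 26.6 and 14.5 in the PABP1 IP and 19.6 and 27.6 in the GFP IP. It did not pass in any comparison of the main fit (adjusted p = 0.067 to 0.715). In PABP1 IP against input it passed in 4 of 12 alternatives, and in the other comparisons in 0. None of the 3 genes had probes called in opposite directions, as 6.07%, 6.42% and 7.88% of 4515 genes with more than 1 kept probe did. Where on each transcript the probes lie is not given in the sources used here.

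**Figure D2:**
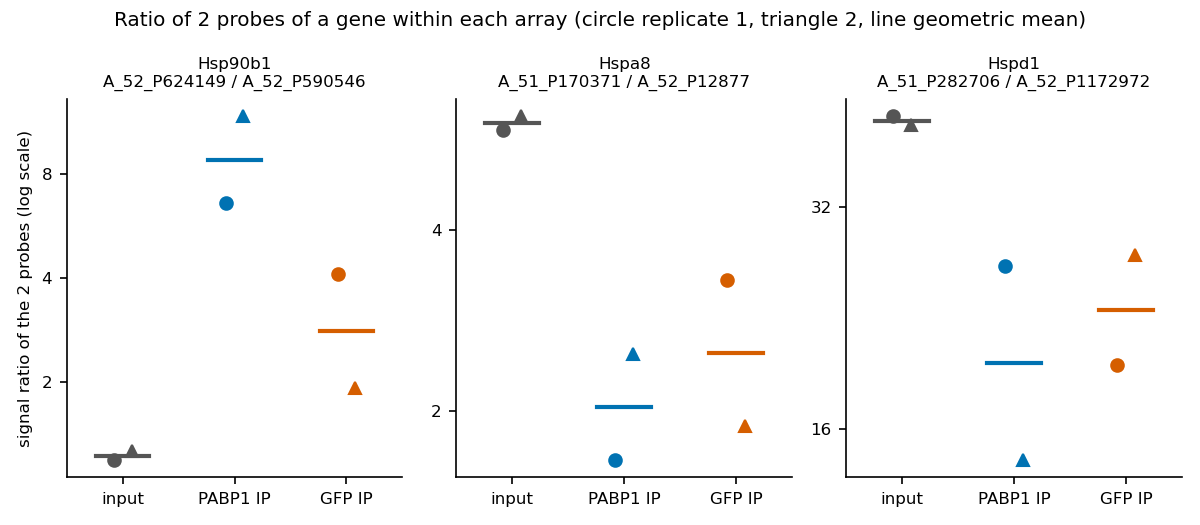
Ratio of the signals of both kept probes of Hsp90b1, Hspa8 and Hspd1 within each array, on a log axis, with circles for replicate 1, triangles for replicate 2 and lines for geometric means of the group. The Hsp90b1 ratio rises from 1.19 and 1.26 in input to 6.59 and 11.8 in the PABP1 IP, and the Hspa8 ratio falls from 5.87 and 6.19 to 1.65 and 2.48.

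The promoters of Hspa5 and Hsp90b1 are shown because these ER chaperone mRNAs were called below input in the GFP IP, and Hspa5 and 1 of 2 Hsp90b1 probes in the PABP1 IP too. Spike-in scaling turned Hspa5 in both IPs and Hsp90b1 probe A_52_P624149 in the PABP1 IP. They are also shown because both carry the ER stress element bound by ATF6 and NF-Y. RefSeq windows from 250 bases before to 50 after the start (GRCm38.p6) were found for 7 of the 9 members, in 8 windows, with none for Hspa8 and Hmox1. The element, CCAAT and CCACG with 9 bases of any kind between them, searched on both strands, was in 39 of 32851 windows (0.119%), among them Hspa5 once and Hsp90b1 at 2 places. Capitals mark the element with 10 flanking bases a side, read along the gene's strand.
Hspa5, chr2:34772015-34772053, plus strand: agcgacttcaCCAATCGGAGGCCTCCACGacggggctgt
Hsp90b1, farther match, chr10:86705628-86705666, minus strand: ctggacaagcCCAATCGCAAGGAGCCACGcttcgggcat
Hsp90b1, nearer match, chr10:86705523-86705561, minus strand: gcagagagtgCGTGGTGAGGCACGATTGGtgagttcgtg
The nearer Hsp90b1 match reads in the opposite direction. The matches begin 65 bases before the start in Hspa5, and 212 and 107 bases before it in Hsp90b1.

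A heat shock element, the site of HSF1, was searched as GAA, TTC and GAA with 2 bases of any kind between each. It was in 198 windows (0.603%) and among the members in that of Hspd1. There a match on each strand, partly overlapping, together span 18 bases that begin 144 bases before the start.
Hspd1, chr1:55088059-55088076, minus strand: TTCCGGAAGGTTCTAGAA
All 18 bases are in capitals because the matches together cover them. An antioxidant element, TGACNNNGC, was in 12.4% of windows, and a C/EBP-ATF element, TGATGNAAT, in 0.965%. Neither set of letters was in a member window, which says only that these letters are not there. The arrays read recovered RNA and carry no measurement of these elements.

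Atf4 encodes the transcription factor at the centre of the integrated stress response. Its scaled signal was 3.54 and 3.24 in input, 13.9 and 19.2 in the PABP1 IP and 15 and 9.103 in the GFP IP. All IP arrays lay well above input and the IPs overlapped. The mRNA was 4.83-fold higher in the PABP1 IP (2.27 ± 0.31, adjusted p = 0.00278) and 3.45-fold higher in the GFP IP (1.79 ± 0.31, adjusted p = 0.00692) than in input, in all 18 alternatives. The IPs differed by -0.49 ± 0.31 (adjusted p = 0.211), by 0.01 with quantile normalization, and passed the threshold when blocked on the slide (-0.49, adjusted p = 0.0339) or under spike-in scaling (-1.76, adjusted p = 0.00232).

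Xbp1 encodes the factor made active when IRE1 splices its mRNA. The probe had a scaled signal of 1.00 and 0.917 in input, 4.63 and 3.59 in the PABP1 IP and 1.49 and 1.67 in the GFP IP. The PABP1 IP was highest, the GFP IP second and input lowest, without overlap. The mRNA was 4.25-fold higher in the PABP1 IP than in input (2.09 ± 0.20, adjusted p = 0.00123) and 2.58-fold lower in the GFP IP than in the PABP1 IP (-1.37 ± 0.20, adjusted p = 0.00273), both in all 18 alternatives. The GFP IP was 1.65-fold higher than input (0.72 ± 0.20, adjusted p = 0.0302), in 12 of 18 alternatives. This call ended without any 1 of the input or GFP IP arrays (0.63 to 0.80, adjusted p = 0.0718 to 0.141). The array does not tell spliced from unspliced Xbp1 by a separate probe.

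Ddit3 encodes CHOP, which promotes cell death when ER stress lasts. Its scaled signal was 5.95 and 4.92 in input, 13.4 and 14.4 in the PABP1 IP and 4.07 and 3.37 in the GFP IP. The PABP1 IP was highest and the GFP IP lowest, and no groups overlapped. The mRNA was 2.57-fold higher in the PABP1 IP than in input (1.36 ± 0.19, adjusted p = 0.00332) and 3.75-fold lower in the GFP IP than in the PABP1 IP (-1.91 ± 0.19, adjusted p = 0.000951), both in all 18 alternatives. Against input the GFP IP was at -0.55 ± 0.19 (adjusted p = 0.0613). It became -0.64 (adjusted p = 0.0349) when blocked on the slide, 0.03 under median scaling and 0.46 under spike-in scaling.

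Hmox1 encodes heme oxygenase-1, which opens the heme ring and is a target of NRF2 and BACH1. Its scaled signal was 11.2 and 11.05 in input, 14.5 and 12.3 in the PABP1 IP and 51.1 and 59.8 in the GFP IP. Both GFP IP arrays stood far above the other 4, and input and PABP1 IP were close without overlapping. Relative to input the GFP IP value was up 4.96-fold (2.31 ± 0.18, adjusted p = 0.00152, in all 18 alternatives). It was 4.14-fold higher than in the PABP1 IP (2.05 ± 0.18, adjusted p = 0.0007), passing in 17 of 18 alternatives and giving 0.78 (adjusted p = 0.19) with spike-in scaling. The PABP1 IP lay 0.26 ± 0.18 from input (adjusted p = 0.28), and passed under normexp background (0.62, adjusted p = 0.0164) and under spike-in scaling (2.54, adjusted p = 6.11e-06).

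Hmox1 is also abundant in macrophages. Blood and macrophage markers summed over 5 genes were 13.1 and 25.1 in input, 32.7 and 42.9 in the PABP1 IP and 4.99 and 9.76 in the GFP IP, with Gata1 and Ptprc not well above background in input. Endothelial markers summed over 2 genes were 1.60 and 1.95 in input, 0.950 and 0.973 in the PABP1 IP and 7.98 and 8.64 in the GFP IP. Of these markers 1 of 5 was well above background on both input arrays, with Cdh5, Kdr, Tek and Tie1 not. So 1 of the 2 summed genes was kept through IP arrays alone, which can raise the sum in an IP. The part of these cells in the Hmox1 values was not tested. No other member was past the threshold upward in both comparisons of the GFP IP. The Hsp90b1 probe A_52_P590546 and Hmox1 were the 2 member probes higher in the GFP IP than in the PABP1 IP, but the Hsp90b1 probe lay below input.

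**Figure D3:**
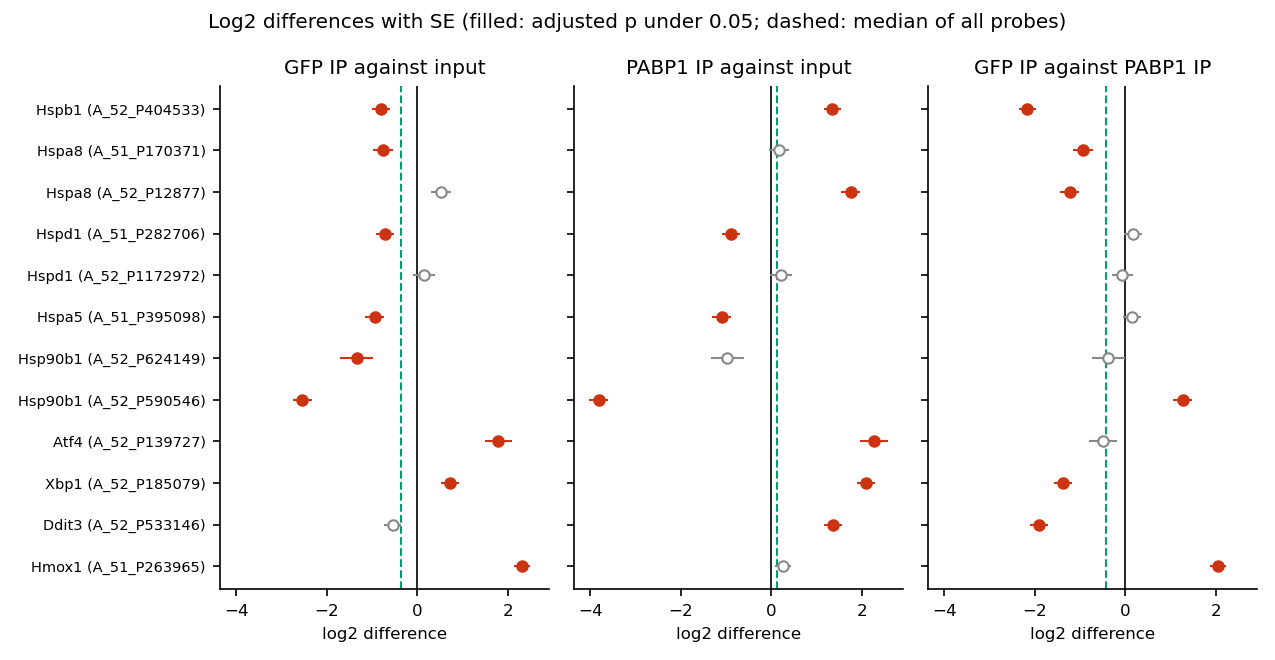
Log2 differences with their standard errors for the 12 tested probes in the 3 comparisons; filled points passed an adjusted p of 0.05 in limma, open points did not, and the dashed line is the median of all kept probes (-0.36, 0.12 and -0.43). Hmox1 lies at 2.31 and 2.05 in the GFP IP comparisons, and Hsp90b1 by A_52_P590546 at -3.81 in PABP1 IP against input. Spike-in scaling turns the lower Hspa5, Hspd1 (A_51_P282706), Hspb1, Hspa8 (A_51_P170371) and Ddit3 points of the GFP IP against input above 0 (0.06 to 0.46), and the Hspa5, Hsp90b1 (A_52_P624149) and Hspd1 (A_51_P282706) points of the PABP1 IP against input (1.18, 1.31 and 1.39). Between the IPs it turns Hspd1 (A_51_P282706), Hspa5 and Hsp90b1 (A_52_P590546) below 0 (-1.09, -1.12 and -0.0033), and other scalings turn points that did not pass.

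The authors' deposited table holds a mean a group, on a scale where the median of an array is the unit, and names genes but not probes. In the authors' deposited table Hmox1 was at 39.9 in input, 37.0 in the PABP1 IP and 110 in the GFP IP, and Atf4 was at 2.79, 44.7 and 30.2. The authors' deposited table gave Xbp1 at 6.68, 25.9 and 12.1, Ddit3 at 23.9, 45.9 and 17.2, and Hspb1 at 313, 555 and 170. The group means of these 5 genes lay in the same order as in the scanner values, apart from input and PABP1 IP for Hmox1. The authors' deposited table put Hspa5 at 192, 149 and 106. Hsp90b1 has 2 rows in the authors' deposited table. The authors' deposited table gave 632 in input, 34.4 in the PABP1 IP and 54.3 in the GFP IP in one, and 337, 1520 and 892 in the other, which opposes both probes read here. Of the Hspa8 rows, the authors' deposited table gave 219, 1828 and 1117 in one and 70.6, 179 and 91.8 in the other. Both oppose probe A_51_P170371 in the GFP IP against input. For Hspd1 the authors' deposited table gave 10.7, 30.4 and 28.2 in one row and 1481, 1142 and 1151 in the other. Against input the second has the direction of probe A_51_P282706 in both IPs and the first the opposite one. As the rows name no probe, it is not known which row reads which probe. Across 25540 accessions matched once, which are not independent replicates, group means in the authors' deposited table and the scanner values had Spearman correlations of 0.825 to 0.860. Across 11070 accessions, the log2 ratios from the authors' deposited table correlated with those from the scanner values at 0.753 for the GFP IP over input, 0.693 for the PABP1 IP over input and 0.902 between the IPs.

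The other genes of the pathways were read by 1 probe each, the brightest kept, from 5 lists chosen with earlier results of these data known. The list calls come from the main fit over all kept probes. In that fit 20.9% of kept probes were higher and 32.0% lower in GFP IP against input. The shares were 30.5% and 24.2% in PABP1 IP against input, and 25.0% and 37.6% in GFP IP against PABP1 IP. Counts of all 15310 genes come from a separate fit with 1 probe a gene, adjusted over those genes. There 2829 genes were higher and 5532 lower in GFP IP against input. In PABP1 IP against input 4572 were higher and 3674 lower, and in GFP IP against PABP1 IP 3454 and 6259. Oxidative stress and NRF2 target genes were the list that lay farthest above the median of all genes in the PABP1 IP and farthest below it in GFP IP against PABP1 IP. In PABP1 IP against input 25 of 46 were higher, 6 lower and 15 did not pass, and their median lay 0.68 above all genes. From the PABP1 IP to the GFP IP 7 were higher, 31 lower and 8 did not pass, with a median -0.83 from all genes. Between the GFP IP and input 7 were higher, 19 lower and 20 did not pass, with a median -0.11 from all genes, which normexp background turned to 0.11.

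Bach1 and Bach2 encode repressors of Hmox1 and related genes. Bach1 was 9.26-fold lower in the PABP1 IP than in input (-3.21 ± 0.18, adjusted p = 0.000836) and 8.19-fold higher in the GFP IP than in the PABP1 IP (3.03 ± 0.18, adjusted p = 0.000536). Bach2 was at -2.11 ± 0.20 and 2.28 ± 0.20 (adjusted p = 0.00118 and 0.000654), the first turned to 0.17 by spike-in scaling. In GFP IP against input neither passed, with Bach1 at -0.18 and Bach2 at 0.17 (limma adjusted p = 0.43 and 0.475). The ferritin light chain gene Ftl1 (2.85 ± 0.26, adjusted p = 0.00113) and the secreted peroxidase gene Gpx3 (2.25 ± 0.22, adjusted p = 0.00125) were higher in the PABP1 IP than in input. Thioredoxin, Txn1 (-2.95 ± 0.16, adjusted p = 0.000536), and the glutathione transferase gene Mgst1 (-2.91 ± 0.31, adjusted p = 0.0011) were lower in the GFP IP than in the PABP1 IP. Relative to input in the GFP IP, glutathione reductase, Gsr, was 7.29-fold higher (2.87 ± 0.19, with other probes at 3.37 and 3.2) and the small Maf gene Maff 3.93-fold higher (1.97 ± 0.23), with Prdx2 (-1.64 ± 0.16) and Pgd (-1.58 ± 0.19) lower. Other probes gave -1.20 and -0.95 for Prdx2 and -0.67 for Pgd. With spike-in scaling Bach1 kept its direction in the PABP1 IP without passing (-0.93, adjusted p = 0.0956), Bach2 did so between the IPs (1.01, adjusted p = 0.0856), and Prdx2 and Pgd were at -0.63 and -0.58 (adjusted p = 0.411 and 0.461).

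Of 41 genes for ER chaperones and the unfolded protein response, 14 were higher, 9 lower and 18 not past in GFP IP against input, with a median 0.41 above all genes. In PABP1 IP against input 9 were higher, 11 lower and 21 not past (median -0.28 from all genes, 0.26 with normexp background), and in GFP IP against PABP1 IP 14 were higher, 14 lower and 13 not past (0.76). Dnajb9, an ER co-chaperone that binds IRE1, was higher than input in the GFP IP (3.03 ± 0.26, with other probes at 3.35 and 1.67). In the PABP1 IP it was higher too (2.23 ± 0.26, with others at 2.75 and 1.23). The Dnajb9 probe was well above background on 1 of 2 input arrays and so was kept through IP arrays alone. As the filter favoured that direction, no p-value is given for it. The prolyl isomerase Ppib (-2.09 ± 0.41, adjusted p = 0.0106, with another probe at -0.69) and Sil1 (-1.88 ± 0.19), the exchange factor of BiP, were lower in the GFP IP. Without input replicate 1 or GFP IP replicate 1, Ppib was at -2.05 and -1.88 (adjusted p = 0.0577 and 0.051), and spike-in scaling gave -1.08 for Ppib and -0.87 for Sil1 (adjusted p = 0.113 and 0.222). Dnajc1 (-1.99 ± 0.26) and Hspa13 (-1.92 ± 0.19, with another probe at -0.31) were lower in the PABP1 IP, except with spike-in scaling (0.29 and 0.36). Other Dnajc1 probes gave -2.09 and -1.43. Serp1 was higher (2.31 ± 0.18, with another probe at 1.23). Between the IPs, Edem3 was higher in the GFP IP (2.75 ± 0.47), while Fkbp2 (-2.48 ± 0.18) and Serp1 (-2.39 ± 0.18, with another probe at 0.85) were lower. The ATF6-cleaving protease gene Mbtps2 was at least 2.62-fold higher there, but gave 0.29 with normexp background. Its probe was well above background on no input or PABP1 IP array and was kept through the GFP IP alone. As the filter favoured that direction, no p-value is given for Mbtps2.

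Of 31 genes of the integrated stress response and ATF4 targets, 7 were higher, 12 lower and 12 not past in GFP IP against input, 6, 8 and 17 in PABP1 IP against input, and 7, 11 and 13 in GFP IP against PABP1 IP. Their medians lay 0.03, -0.24 and 0.29 from all genes. Blocking on the slide gave -0.04 for the first and slide 1 alone -0.13, and normexp background turned the second to 0.43. Cebpb, a partner of ATF4, was raised in the GFP IP over input (2.63 ± 0.25, adjusted p = 0.00195, with another probe at 3.04), as was the amino acid transporter gene Slc7a5 (2.22 ± 0.41, adjusted p = 0.00859). The tRNA synthetase genes Sars (-2.28 ± 0.21) and Aars (-1.88 ± 0.22, with another probe at 0.01) were lower there, with -1.27 and -0.88 under spike-in scaling (adjusted p = 0.0543 and 0.218). Aars (-2.24 ± 0.22, with another probe at -0.47) and the eIF2α kinase gene Eif2ak2 (-1.73 ± 0.22) were lower in the PABP1 IP than in input, except with spike-in scaling (0.03 and 0.54), and Eif2ak2 was well above background on 1 of 2 PABP1 IP arrays. Cebpg (2.18 ± 0.46, adjusted p = 0.0113) was higher, with 2.11 and adjusted p = 0.0579 without input replicate 2 and another probe at 0.14. Ppp1r15a, which helps reverse eIF2α phosphorylation, was higher too (1.47 ± 0.41, adjusted p = 0.0288). It was not past without input replicate 1, input replicate 2 or PABP1 IP replicate 2 (1.43, 1.51 and 1.07, adjusted p = 0.109, 0.0991 and 0.113). Ppp1r15b, a regulator of eIF2α phosphatase, was higher in the GFP IP than in the PABP1 IP (2.66 ± 0.18, adjusted p = 0.000536), but another probe gave -0.30. The stress-induced Nupr1 (-2.05 ± 0.25, adjusted p = 0.00157) and the eIF2α gene Eif2s1 (-2.03 ± 0.21, adjusted p = 0.000956, with another probe at -1.26) were lower.

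Of 46 cytosolic heat shock and chaperone genes, 7 were higher, 13 lower and 26 not past in GFP IP against input, 15, 7 and 24 in PABP1 IP against input, and 4, 23 and 19 in GFP IP against PABP1 IP, with medians 0.21, 0.31 and 0.04 from all genes (the last -0.05 within slide 1). The chaperonin subunit gene Cct8 was above input in the GFP IP (2.11 ± 0.16, adjusted p = 0.0015) and above the PABP1 IP (1.81 ± 0.16, adjusted p = 0.000681), the latter at 0.53 under spike-in scaling (adjusted p = 0.375). Hspa2, the HSP70 of spermatocytes, was higher in the GFP IP than in the PABP1 IP (1.25 ± 0.20, adjusted p = 0.00367), except with spike-in scaling (-0.02). The co-chaperone genes Bag2 (2.31 ± 0.32) and Bag1 (2.05 ± 0.19) were higher in the PABP1 IP than in input, and Hsph1, an HSP110, was lower (-1.64 ± 0.18), except with spike-in scaling (0.64). Dnaja4, an HSP40, was at least 1.21-fold higher in the GFP IP than its input level, but normexp background turned it to -0.43. Its probe was well above background on neither input array and so was kept through IP arrays alone. As the filter favoured that direction, no p-value is given for Dnaja4. The small heat shock genes of muscle Hspb2 (-2.91 ± 0.18) and Cryab (-2.84 ± 0.37), relatives of Hspb1 and measured beside the muscle markers given with it, were lower in the GFP IP than in the PABP1 IP, with other probes at -2.13 and -2.23. Hsp90aa1, an inducible cytosolic HSP90, was lower than input in the GFP IP (-1.68 ± 0.26, adjusted p = 0.00522, with -0.67 and adjusted p = 0.376 under spike-in scaling) and in the PABP1 IP (-1.32 ± 0.26, adjusted p = 0.00915), the latter turned to 0.95 by spike-in scaling and at adjusted p = 0.0563 without input replicate 1 (-1.24).

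Of 15 mitochondrial chaperone and protease genes, 10 were lower, 0 higher and 5 not past in GFP IP against input, with a median -0.27 from all genes, which normexp background turned to 0.18. In PABP1 IP against input 5 were higher, 2 lower and 8 not past (-0.15, turned to 0.53 by normexp background), and in GFP IP against PABP1 IP 7 were lower, 0 higher and 8 not past (0.12, turned to -0.08 by quantile normalization). The matrix protease genes Clpp (-1.65 ± 0.21, adjusted p = 0.0032) and Lonp1 (-1.59 ± 0.16, adjusted p = 0.00218) were lower in the GFP IP than in input, with -0.64 and -0.58 under spike-in scaling (adjusted p = 0.4 and 0.455). Hspa9, the mitochondrial HSP70 and partner of Hspd1 in folding, was lower in the PABP1 IP than in input (-0.88 ± 0.18, adjusted p = 0.00977), with another probe at -0.24. Spike-in scaling turned Hspa9 to 1.40, and without input replicate 1 or input replicate 2 it was at -0.86 and -0.91 (adjusted p = 0.0653 and 0.0576). The co-chaperone genes Dnajc19 (2.51 ± 0.16, adjusted p = 0.000836) and Hscb (2.02 ± 0.23, adjusted p = 0.00177) were higher in the PABP1 IP than in input. Both were lower in the GFP IP than in the PABP1 IP (-3.07 ± 0.16 and -2.93 ± 0.23, adjusted p = 0.000536 and 0.00059).

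**Figure D4:**
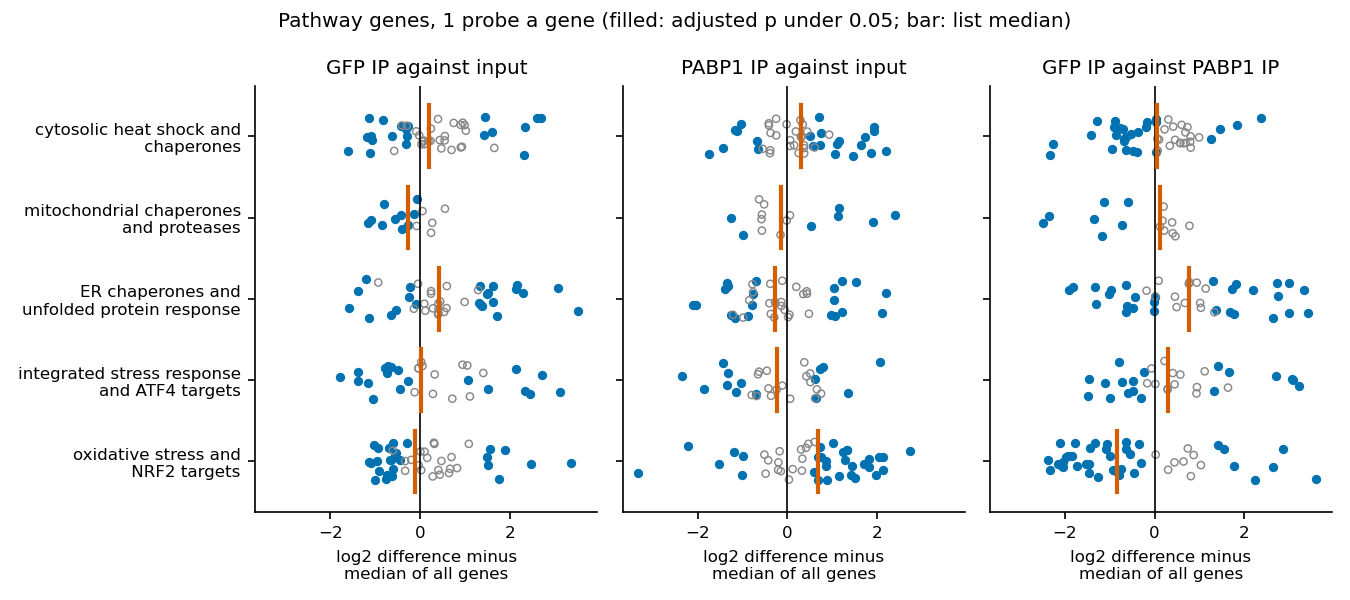
Log2 difference minus the median of all genes for each tested gene of 5 pathway lists in the 3 comparisons; filled points passed an adjusted p of 0.05 in limma, open points did not, and bars are list medians. The oxidative stress list lies 0.68 above all genes in PABP1 IP against input and -0.83 from them in GFP IP against PABP1 IP. With normexp background the mitochondrial list in both comparisons with input, the oxidative list in GFP IP against input, and the ER and integrated stress lists in PABP1 IP against input change sign.

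The genes whose probes followed each member most closely over the 6 arrays were found by the smallest Euclidean distance between log2 values centred on each probe's mean, among 21039 kept probes of other genes. The nearest was Sub1 for Hmox1 (distance 0.149), Ndufa12 for Hspb1 (0.05002), Psmd10 for Ddit3 (0.106), Pnp for Xbp1 (0.146) and Bloc1s2 for Atf4 (0.144). For Hspa8, Hspd1 and Hsp90b1, each by its brighter probe, it was Armc7 (0.0880), Rgp1 (0.109) and Tmco3 (0.247). For Hspa5 it was an unnamed transcript, TC1435215 (0.185).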

How the data were processed

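Spot intensity in the deposited scanner files was read by Agilent Feature Extraction 9.1.3.1, which also wrote a background-subtracted and detrended signal, per the file headers. The authors' deposited table holds group means and standard errors of signal, scaled to the median of each array per the file headers, and a quality score; the deposited score ran from -0.294 to 1.00 and was not used. The genome build is not given in the sources used here. Control and outlier spots were left out, log2 values of a probe's spots were averaged, and the 75th percentile of each array was subtracted. Probes marked as above background on each array of 1 or more groups were kept. Comparisons were fitted over the 6 arrays by limma 3.58.1 (lmFit, eBayes; R 4.3.3), with no covariate besides the group, leaving 3 residual degrees of freedom, and tested two-sided, with Benjamini-Hochberg adjustment over all kept probes and 0.05 as the threshold. The ± sign gives a standard error, over 2 arrays a group. The number of arrays limits the precision. Values from the authors' deposited table were copied without a test. A fold is a bound ("at least") where neither array of the dimmer group was above background: per array, the higher of the probe's own signal and the dimmest detected signal then stands in for it. Gene names came from the files and, for 22951 probes, through accessions from a RefSeq gene table. All members were named, and of each pathway list the text takes its names from up to 2 higher and 2 lower genes with the largest called differences in a comparison. The members and lists were chosen with earlier results of these data known. Alternatives were background correction, scaling, filter, slide, replicate block, 1 probe a gene and leaving out each array. The script was also tested on simulated data, where all but a few of 21051 probes were left unchanged, unlike in these data. There 0 of 100 planted log2 changes of 1 were recovered in either comparison of the GFP IP. Of 100 planted log2 changes of 2, 50 were recovered against input and 44 against the PABP1 IP, with 3 false calls in each. These rates need not hold in these data, where more probes were called and a smaller difference passed (-0.71 for Hspd1 by A_51_P282706 in GFP IP against input). With 2 arrays a group, a difference not past the threshold is still no sign of equal levels.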

Additional observations from a re-analysis of the deposited data

How the results depend on the processing

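Over the alternatives run, the calls of Hmox1 and Atf4 above input in the GFP IP, of Atf4, Xbp1, Ddit3, Hspb1 and Hspa8 (A_52_P12877) above input in the PABP1 IP, of Hsp90b1 (A_52_P590546) below input in both IPs, and of Hspb1, Xbp1 and Ddit3 below the PABP1 IP in the GFP IP kept direction and call. Probes past the threshold in GFP IP against input numbered 11136, but 7094 with spike-in scaling and 21631 with no filter on dim probes (3883 higher and 17748 lower). They numbered 11512 in PABP1 IP against input, but 18033 with spike-in scaling, and 13173 in GFP IP against PABP1 IP. Leaving out 1 array gave 5659 to 11329, 7480 to 11286 and 10794 to 12351 in these comparisons, the lowest without input replicate 1, input replicate 2 and PABP1 IP replicate 1; without input replicate 2 the first gave 6439 and without input replicate 1 the second gave 7622. Of the 12 member probes, 9 passed in GFP IP against input, but 5 with the median of all probes, 5 with spike-in scaling and 5 with a replicate block (Hspa8, Hspd1, Xbp1 and 1 Hsp90b1 probe lost), and 3 to 9 without 1 array (6 to 8 and 6 to 7 in the other comparisons). The replicate block gave 9376, 10124 and 11848 probes. No label says that the numbers pair the arrays, whose deviations correlated at 0.154 (input and PABP1 IP), -0.0196 (input and GFP IP) and -0.624 (both IPs). A block with the GFP IP numbers exchanged, chosen after seeing the data, gave 12633, 12349 and 14340.

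Directions turned as follows, and the cause was not tested. With spike-in scaling GFP IP against input became 0.25 for Hspa8 (A_51_P170371), 0.30 for Hspd1 (A_51_P282706), 0.061 for Hspa5, 0.20 for Hspb1 and 0.46 for Ddit3. PABP1 IP against input became 1.39 for Hspd1 (A_51_P282706), 1.18 for Hspa5 and 1.31 for Hsp90b1 (A_52_P624149), and 0.64 for Hsph1, 0.95 for Hsp90aa1, 1.14 for Lonp1, 1.40 for Hspa9, 0.29 for Dnajc1, 0.36 for Hspa13, 0.034 for Aars, 0.54 for Eif2ak2 and 0.17 for Bach2. GFP IP against PABP1 IP became -1.09 for Hspd1 (A_51_P282706), -1.12 for Hspa5, -0.0033 for Hsp90b1 (A_52_P590546) and -0.019 for Hspa2. With the median of all probes Ddit3 in GFP IP against input became 0.029, and in GFP IP against PABP1 IP Hspd1 (A_52_P1172972) became 0.32 and Hsp90b1 (A_52_P624149) 0.012. With quantile normalization Hspa8 (A_51_P170371) became -0.46 in PABP1 IP against input and 0.14 in GFP IP against PABP1 IP, where Hspd1 (A_52_P1172972) became 0.25, Atf4 0.010 and Hsp90b1 (A_52_P624149) 0.61. With the percentile of detected probes Hspa8 (A_51_P170371) became -0.020 in PABP1 IP against input and Hspd1 (A_52_P1172972) 0.30 in GFP IP against PABP1 IP. Hspd1 (A_52_P1172972) also became 0.093 with normexp background and 0.051 within slide 1 in GFP IP against PABP1 IP, -0.050 within slide 1 in PABP1 IP against input and -0.056 with the slide as a block in GFP IP against input. In GFP IP against input normexp background gave -0.43 for Dnaja4 and -0.27 for Mbtps2. Without 1 array Hspd1 (A_52_P1172972) ran from -0.050 to 0.47 in PABP1 IP against input and from -0.32 to 0.20 in GFP IP against PABP1 IP, and Hsp90b1 (A_52_P624149) from -0.82 to 0.069 in the latter. The probe ratios in GFP IP against PABP1 IP ran without 1 array from -0.10 (GFP IP replicate 1) to 0.70 for Hspa8 and from -0.20 (PABP1 IP replicate 2) to 0.68 for Hspd1. Alternatives for the probe ratios and for the 56 results of list genes were added after seeing the data. Of those 56, 29 passed under every one, counting Lonp1 in PABP1 IP against input, which spike-in scaling turned to 1.14.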
